A study of Mus musculus with 26 samples.

Results

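The adipocytes of mice switched from a high fat to a low fat diet (SW) were compared with those of mice kept on the high fat diet (HFD), across every gene that could be tested. The 6 libraries, 3 SW and 3 HFD, were chosen by fraction and diet group out of 15 libraries used and 18 columns of values in the series, and 14461 of 39017 genes were tested. All mice were male wild type C57BL/6J, put on their diets at 9 to 10 weeks of age. HFD mice ate the 60% fat diet for 12 weeks, and SW mice ate it for 9 weeks and then the 10% fat diet (LFD) for 3 weeks. Adipocytes of mice fed the LFD for 12 weeks were in the same fit and their levels are given for reference only. The cells came from collagenase-treated epididymal fat, of which the supernatant after a spin was taken as adipocytes, and the stromal vascular cells (SVC) were the pellet. Red cells were lysed in the pellet and not in the adipocyte fraction. RNA was sequenced in bulk, so fewer cells of a type and less RNA per cell cannot be told apart.

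White adipocytes store triglyceride in a single large droplet, take up glucose through the insulin-driven transporter GLUT4, make fatty acids from it, and release fatty acids when their beta-adrenergic receptors are stimulated. They also secrete hormones such as adiponectin and adipsin. In obesity the epididymal pad takes on macrophages, many of them filled with lipid and rich in lysosomes, together with dividing cells and a denser collagen matrix. Interferons and their receptors switch on the genes that load peptides onto MHC class I, which every nucleated cell displays to T cells.

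Whether replicate libraries came from separate mice is not given for each column, so p-values measure the spread between these libraries. Levels are given as CPM, the usual scaling of counts to the depth of the library, here with TMM factors, in the order of the library numbers (401, 402 and 403 for HFD; 407, 408 and 409 for SW), and changes are log2 fold changes of SW over HFD from a quasi-likelihood fit in edgeR, where 1 is a doubling. A gene was called when its Benjamini-Hochberg adjusted p over all genes tested was under 0.05. The libraries held 11314661 to 23725647 counts, so that the 3 counts a 0 allows correspond to 0.126 to 0.265 CPM. Intervals of this kind cover counting error only.

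Several properties of the libraries moved with the diet groups. Genes with short transcripts were higher in SW and genes with long transcripts lower. In the shortest 10% of genes (median length 925 bases) the median log2 fold change was 0.68, with 44.8% called higher and 2.65% lower, and in the longest 10% (8117.5 bases) it was -0.40, with 2.93% called higher and 38.7% lower. Every HFD library was below the mean of the 9 adipocyte libraries among the shortest 10%, at -0.50, -0.23 and -0.36 on the log2 scale, and every SW library was above it, at 0.65, 0.06 and 0.12. SW library 407 also differed from the other two SW libraries by more than these did from each other: chi-square over its degrees of freedom, for the counts of library pairs, was 94.1 and 83.5 against 13.5, and 21.6 to 41.4 among the HFD libraries. For the gene lists below, counts are therefore also given from a fit that removes each library's trend with transcript length and GC content, called the corrected fit. Whether that trend came from the cells or from the libraries cannot be told apart, because the whole HFD group differed from the whole SW group in it. The labels also hold 1 record of single reads for an HFD adipocyte library, beside its paired-end one, and none for SW adipocytes, and the part of this difference was not tested.

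**Figure D1:**
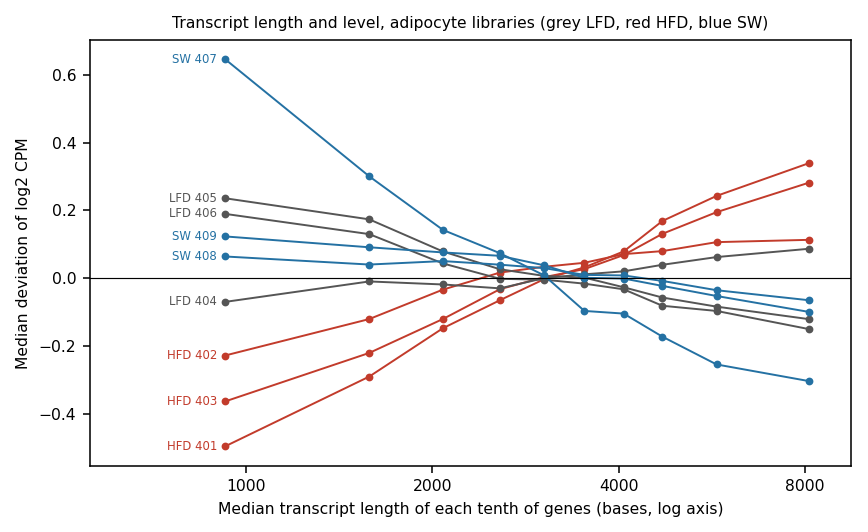
Median deviation of log2 CPM from the mean of the 9 adipocyte libraries, for 10 equal bins of the tested genes ordered by transcript length (log axis), with a line for each library. The HFD lines start at -0.23 to -0.50 in the shortest bin and end above 0, and the SW lines start at 0.06 to 0.65 and end below 0.

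Genes listed at 0 also split the groups. Where the other group averaged 10 counts or more, 10 genes were at 0 in all SW and seen in all HFD libraries, of which 9 were at 0 in all LFD libraries too. Among them were 3 processed pseudogenes with the same counts as each other in every HFD library. A further 13 were at 0 in all HFD libraries and seen in all SW libraries, of which 8 were seen in all LFD libraries and 8 are antisense or long intergenic RNA genes. Whether every library was counted against the same annotation is not given in the sources used here. Of 4 genes of the testis and epididymis tested (9 listed), organs that lie beside this pad, 3 were called higher, in both fits. Insl3, a hormone of Leydig cells, stood at 0, 0 and 0.134 CPM in HFD and 6.83, 3.78 and 3.51 CPM in SW, and the protamine gene Prm2 at 0.15, 0.167 and 0.492 CPM in HFD and 1.16, 5.23 and 4.08 CPM in SW. The summed level of the red cell genes tested was higher in SW, at 612 to 761 CPM in HFD and 1320.0 to 2130.0 CPM in SW. Of these 5 genes, 4 were called higher, against 1 in the corrected fit. The part of these differences in the results below was not tested.

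Across all genes, 4546 were called, which is 31.4% of those tested. Of these, 2252 rose in SW (15.6% of all tested) and 2294 fell (15.9%). These shares are the reference for the counts of list members below. The corrected fit called 3353 of 14321 genes (23.4%), with 1464 higher (10.2%) and 1889 lower (13.2%), and 1122 of the rises and 1445 of the falls were called in both fits. The number depended on single libraries: 1522 genes (10.3%) were called without HFD library 403 and 2299 (15.4%) without HFD library 401, against 3455 to 4290 without each of the other 4. Counts of list members in these fits, given below, are therefore to be read beside fewer calls over all genes. Rises called in every one of these 6 reduced fits numbered 572, and such falls 878. Of the called genes, 2170 rises and 2265 falls had no overlap between the SW and HFD libraries. Separation of a called gene named below is therefore the usual case. A mean CPM at least 2-fold higher in the 6 SVC libraries (2 HFD, 1 LFD and 3 SW) than in LFD adipocytes (0.5 CPM added to each) was found for 37.3% of the falls, 13.1% of the rises and 25.8% of all genes tested. This split mixes diet with fraction. For calls of the corrected fit it gave 47.1% of the falls and 9.15% of the rises. With each diet weighted equally in both fractions, the shares were 22.8%, 12.9% and 20.7%. This second split uses the HFD and SW adipocyte libraries that made the calls, so it is not independent of them, and 1 SVC library stands for LFD. SVC HFD library 411, used in both splits, held 33.5% mitochondrial counts, against 4.36% to 9.54% in the other SVC libraries. No test was made of these shares.

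**Figure D2:**
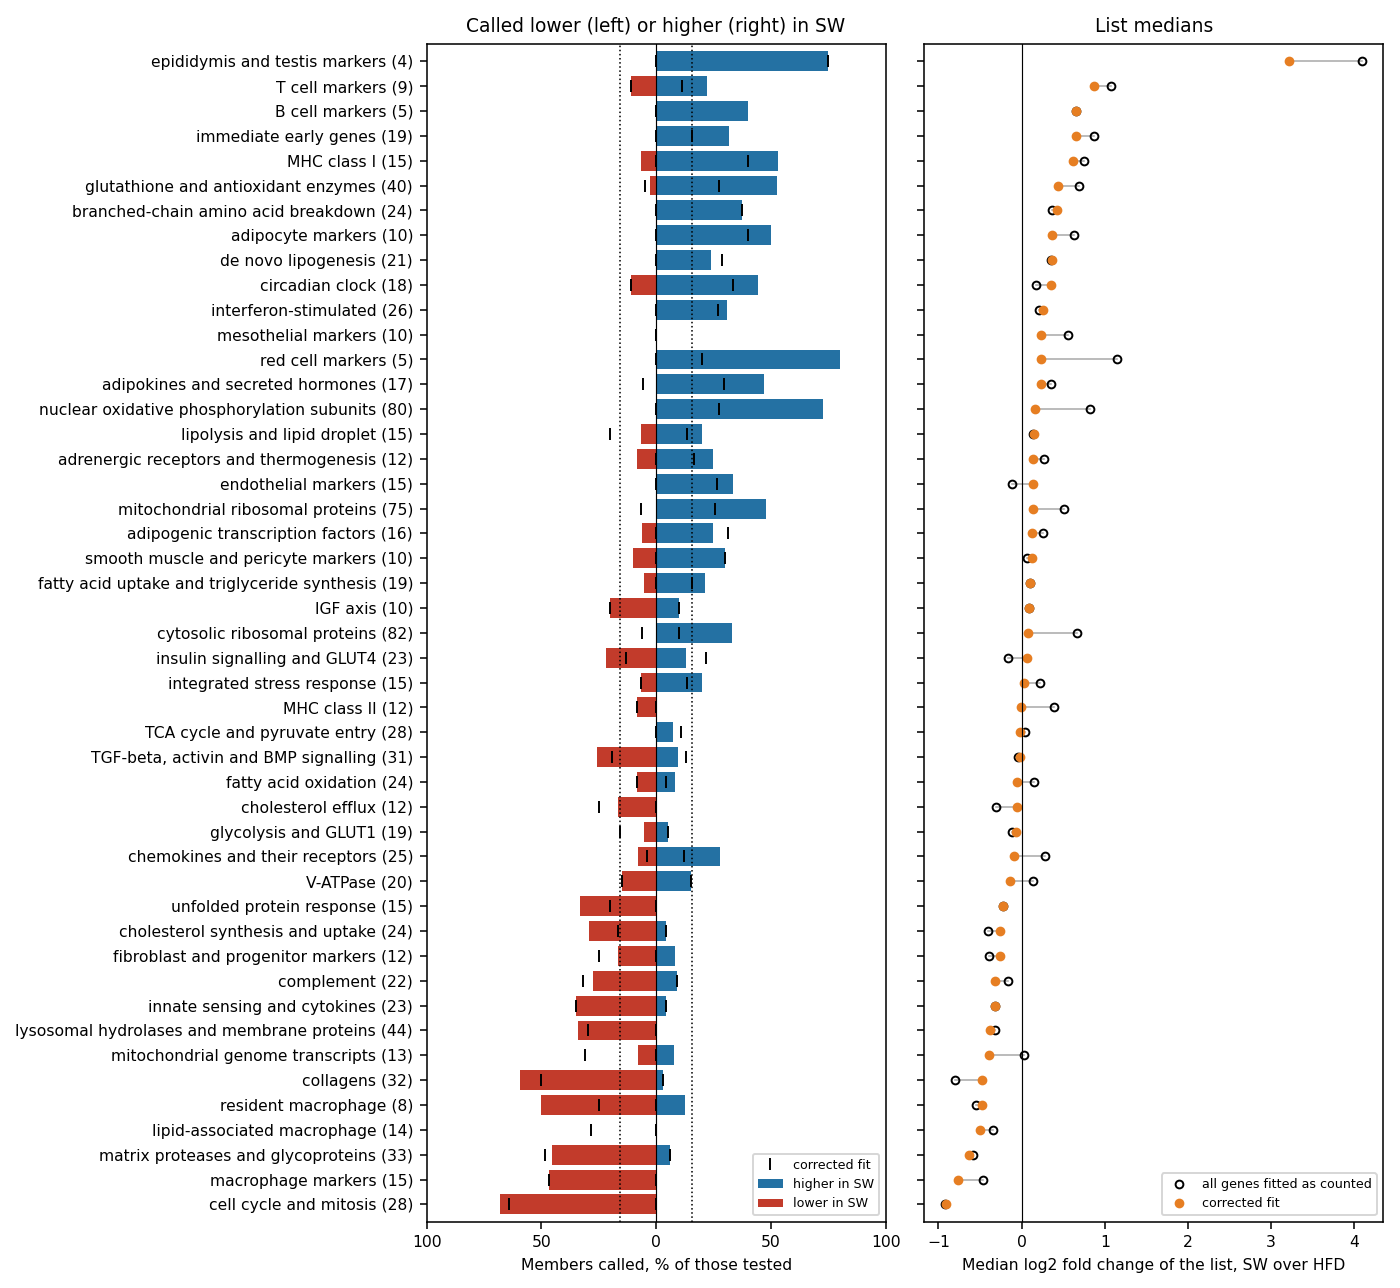
For each of 47 gene lists (number of members tested in brackets), the left panel shows the percentage of members called higher (blue, right) or lower (red, left) in SW, with the corrected fit as black ticks and the 15.6% and 15.9% of all tested genes as dotted lines. The right panel shows the median log2 fold change of each list in both fits, and cell cycle genes have the lowest medians of these lists in both.

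The largest rises and falls among well expressed protein-coding genes were ranked, out of 1444 rises and 1805 falls without overlap between the groups. Cfd, which encodes adipsin, a serine protease of the alternative complement pathway secreted by adipocytes, was at 277, 439 and 199 CPM in HFD and 2154, 2916 and 1975 CPM in SW. Its log2 fold change was 2.94 ± 0.48 (SE), with an adjusted p of 0.0052, and the LFD libraries held 2716, 5994 and 10847 CPM. Timp4, an inhibitor of matrix metalloproteinases found in fat, was at 65.2, 64.8 and 29.2 CPM in HFD and 263, 328 and 308 CPM in SW (log2 fold change 2.5 ± 0.29 (SE), adjusted p = 0.0021). Adrb3, the beta-3 adrenergic receptor through which catecholamines start lipolysis, was at 35.8, 71.9 and 31 CPM in HFD and 159, 256 and 244 CPM in SW (log2 fold change 2.25 ± 0.36 (SE), adjusted p = 0.0049).

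Thrsp, a thyroid hormone responsive factor of lipogenesis, rose from 129, 269 and 124 CPM to 738, 597 and 756 CPM. Retn, which encodes resistin, rose from 195, 338 and 163 CPM to 963, 762 and 833 CPM. Cyp2e1, a cytochrome P450 that oxidises ethanol and acetone, was at 79.8, 171 and 42.9 CPM in HFD and 204, 584 and 434 CPM in SW. The methyltransferase gene Inmt, the chromatin remodelling subunit gene Smarcd3, the immediate early gene Fosb, Plac9b and Gm2564 completed the rises, with log2 fold changes from 1.9 to 2.23. With a single library left out, the adjusted p of Cyp2e1, Plac9b, Gm2564 and Fosb passed 0.05 in at least 1 of the 6 reduced fits. Plac9b has a near-identical neighbour, Plac9a, between which reads could be split. The largest estimate belonged to Lars2, the mitochondrial leucyl-tRNA synthetase, at 417, 332 and 158 CPM in HFD and 12806, 1713 and 1476 CPM in SW. Its size depended on SW library 407. Without that library the log2 fold change was 2.40 and Lars2 was no longer called, though SW libraries 408 and 409 lay above all HFD libraries. The LFD libraries held 3926, 299 and 339 CPM, so the level of Lars2 also varied widely within a diet.

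Among the falls, Adamts12, a secreted metalloproteinase of the ADAMTS family, was at 39.1, 16.9 and 35.7 CPM in HFD and 1.16, 2.82 and 4.44 CPM in SW (log2 fold change -3.39 ± 0.48 (SE), adjusted p = 0.0037). Tlr8, an endosomal receptor for single-stranded RNA, was at 81.6, 42.2 and 48.5 CPM in HFD and 1.47, 8.59 and 8.51 CPM in SW. Pik3ap1, a PI3-kinase adaptor of myeloid and B cells, fell from 81.1, 50.2 and 79.6 CPM to 3.68, 12.3 and 16.7 CPM, against 2.54, 0.774 and 0.396 CPM in the LFD libraries. Cd300lh, of the CD300 family of myeloid receptors, was at 87.7, 67.5 and 93.8 CPM in HFD and 5.68, 18.7 and 18.7 CPM in SW. The interleukin 6 receptor Il6ra was at 26.3, 19.4 and 25.6 CPM in HFD and 1.68, 6.43 and 6.22 CPM in SW, and the collagen VI chain gene Col6a5 at 119, 50.3 and 88.3 CPM in HFD and 15.1, 18.2 and 20.3 CPM in SW. The actin-binding protein gene Palld, the kinesin gene Kif13b, Slfn5, the lysosomal trafficking regulator gene Lyst, the cohesin-associated gene Pds5a and 9930111J21Rik2 made up the others, with log2 fold changes from -2.78 to -2.23. All 24 ranked genes were called in the same direction in the corrected fit, and Slfn5 was lost without HFD library 401 or 403.

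**Figure D3:**
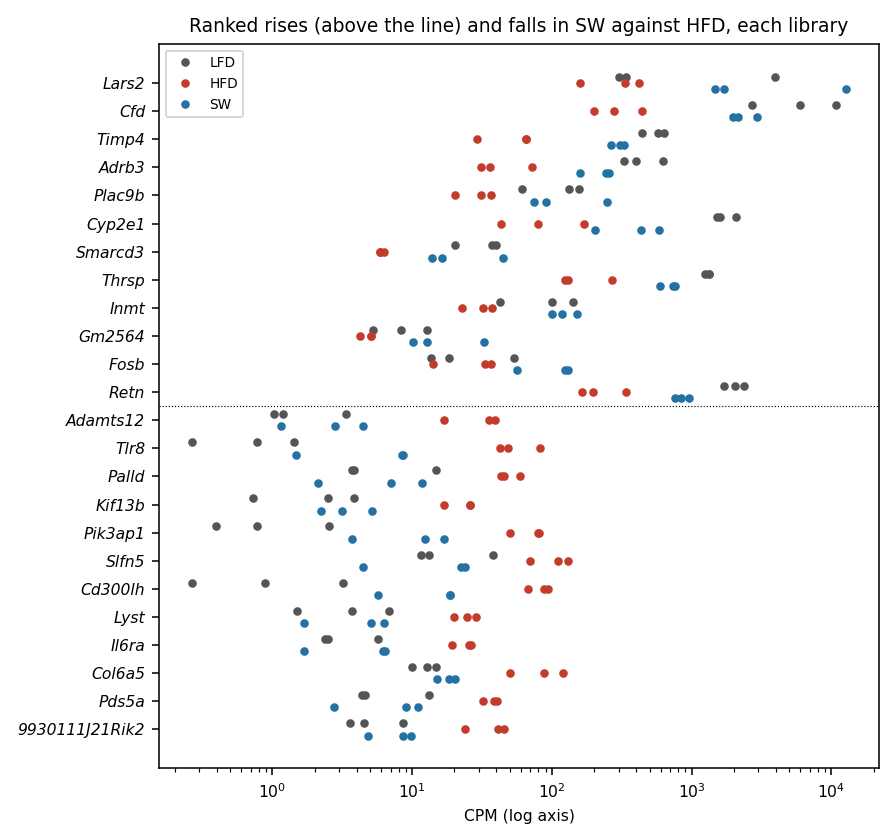
CPM (log axis) of the 12 largest rises and 12 largest falls in each library of LFD (grey), HFD (red) and SW (blue). By the rule that chose them, the SW and HFD points of a gene do not overlap, and SW library 407 is the point of Lars2 at 12806 CPM.

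Several genes that define the adipocyte, and several of its hormones, rose after the switch. Of 10 adipocyte markers tested, 5 rose, with a list median of 0.63 against 0.01 over all genes tested, and 4 in the corrected fit, where the median was 0.37. Fabp4, the abundant fatty acid carrier of adipocytes, was at 7450.2, 10929 and 9249.5 CPM in HFD and 19634, 17025 and 16203 CPM in SW. The hormone-sensitive lipase gene Lipe was at 392, 718 and 505 CPM in HFD and 763, 988 and 1115 CPM in SW, and adiponectin, Adipoq, at 795, 1494 and 862 CPM in HFD and 1662, 2274 and 2298 CPM in SW. All 3 genes were higher in every SW library than in every HFD library, while leptin was not called, with Lep at 1027, 2414 and 1656 CPM in HFD and 1329.8, 855 and 1569 CPM in SW (log2 fold change -0.44 ± 0.34 (SE), adjusted p = 0.34). The summed level of the markers was 11900.0 to 19900.0 CPM in HFD and 27000.0 to 28200.0 CPM in SW, and markers such as Fabp4 and Adipoq were abundant in every library of the fraction.

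Of 17 adipokines tested (18 listed), 8 rose, and 5 in the corrected fit. Besides Cfd, Retn and Adipoq, the angiotensinogen gene Agt stood at 20.9, 30.6 and 15.7 CPM in HFD and 44.6, 74.4 and 61.3 CPM in SW, and Rarres2, which encodes chemerin, at 223, 330.3 and 222 CPM in HFD and 592, 460.2 and 488 CPM in SW. Sfrp5, Rbp4 and Gdf15 rose as well, of which Rbp4 and Gdf15 were not called in the corrected fit, nor was Adipoq. With HFD library 403 left out, 4 adipokines and 2 adipocyte markers were called higher, and without HFD library 401, 7 and 2. Without SW library 408 or 409, 3 adipocyte markers were called.

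Some genes of fatty acid synthesis rose, while the summed level of the list overlapped between HFD (8050 to 15600 CPM) and SW (13800 to 17900 CPM). Of 21 genes of de novo lipogenesis, 5 rose and 6 did so in the corrected fit, with a median of 0.35 in the first and 0.36 in the second. The 5 were Thrsp, the acetyl-CoA carboxylase gene Acaca (log2 fold change 0.80), the acetoacetyl-CoA synthetase gene Aacs (0.77), the elongase gene Elovl6 (0.70) and the transketolase gene Tkt (0.70). Elovl6 stood at 11.2, 17.1 and 16.2 CPM in HFD and 25.1, 25.3 and 22.5 CPM in SW. The most abundant members overlapped between the groups: Scd1, the stearoyl-CoA desaturase, was at 5176, 10198 and 7539 CPM in HFD and 8586, 12423 and 11830.0 CPM in SW (adjusted p = 0.17), and the fatty acid synthase gene Fasn at 493, 1361 and 909.7 CPM in HFD and 1281, 1396 and 1456 CPM in SW (adjusted p = 0.17). In both, HFD library 402 was above at least 1 SW library. Without that library 9 members were called higher, and without HFD library 401 or 403, 2 and 2; without SW library 409 there were 3.

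Of 19 genes of fatty acid uptake and triglyceride synthesis, 4 rose and 1 fell, against 3 rises and 0 falls in the corrected fit. Without HFD library 401 or 403, 2 rises were called. The aquaglyceroporin gene Aqp7, which lets glycerol out of the cell, was at 79.1, 82.8 and 77 CPM in HFD and 113, 135 and 131 CPM in SW, and the acyltransferase gene Mogat1 at 3.16, 7.22 and 4.47 CPM in HFD and 11.4, 11.2 and 13.3 CPM in SW. Lipoprotein lipase, Lpl, was at 6953, 7710.3 and 7724 CPM in HFD and 7519, 6248 and 7004 CPM in SW, and the groups overlapped. Gpam, which encodes the mitochondrial acyltransferase that starts glycerolipid synthesis, was the fall (log2 fold change -1.51), and it was not called in the corrected fit. Among 15 genes of lipolysis and the droplet surface (16 listed), 3 rose and 1 fell, and 2 and 3 in the corrected fit. The shares in the first fit were 20% and 6.67%, against 15.6% and 15.9% of all genes tested. The rises were Lipe, the seipin gene Bscl2 and the lipase inhibitor gene G0s2, the last not in the corrected fit. The fall was Plin2, the perilipin of small droplets found in many cell types, from 1807, 2022 and 2116 CPM to 1496, 1258 and 1250.2 CPM (log2 fold change -0.57 ± 0.17 (SE), adjusted p = 0.029). With HFD library 403 left out, edgeR called no gene of lipolysis, where 2 and 1 genes, in that order, were higher and lower at an unadjusted p under 0.05, and with HFD library 401 left out it called 1, Plin2. DESeq2 on all libraries called 4 higher and 1 lower.

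Slc2a4, which encodes the insulin-driven transporter GLUT4, was at 24.8, 41.8 and 30 CPM in HFD and 57.4, 81.5 and 96.3 CPM in SW, with a log2 fold change of 1.28 ± 0.22 (SE) and an adjusted p of 0.0057. Vamp2, a vesicle protein through which GLUT4 reaches the membrane, was at 32, 34.4 and 35.9 CPM in HFD and 64.8, 68.1 and 56.6 CPM in SW. Among all 23 genes of insulin signalling, 3 rose and 5 fell (13% and 21.7%, against 15.6% and 15.9% of all genes tested). The list median of -0.16 changed sign to 0.06 in the corrected fit. The corrected fit called 5 members higher and 3 lower, and the transcripts of this list were long, with a median of 6323 bases. Among the falls called in both fits was the Rab GTPase-activating protein gene Tbc1d1 (log2 fold change -0.83). With HFD library 403 left out, 2 members were called higher and 1 lower, and 3 were lower without HFD library 401 or SW library 408.

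Of 12 adrenergic and thermogenic genes, 3 rose and 1 fell, and Adrb3 was among 2 rises in the corrected fit. Cox8b rose and the deiodinase gene Dio2 fell in the first fit, and neither was called in the corrected one. Ucp1, the uncoupling protein of brown fat, was at 20.4, 14.2 and 20.9 CPM in HFD and 21.1, 21.9 and 2.79 CPM in SW and was not called. Of 16 transcription factors of adipogenesis (17 listed), 4 rose, which were Klf15, Cebpd, Cebpb and Ebf1, and all of these were among 5 in the corrected fit. Klf15, a glucocorticoid-responsive factor of amino acid and lipid metabolism, was at 9.77, 12.8 and 8.0 CPM in HFD and 26.1, 25.6 and 27.5 CPM in SW (log2 fold change 1.37 ± 0.18 (SE), adjusted p = 0.003). Cebpd was at 23.2, 21.2 and 13.2 CPM in HFD and 44, 53.7 and 49.5 CPM in SW. Pparg, the master regulator of the adipocyte, was at 112, 133 and 104 CPM in HFD and 114, 148 and 153 CPM in SW, where the groups overlapped, and it was not called (log2 fold change 0.25 ± 0.16 (SE), adjusted p = 0.23). Stat5b fell, and not in the corrected fit.

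Some genes for the breakdown of the branched-chain amino acids valine, leucine and isoleucine, a fuel of adipocytes, rose. Of 24 genes tested, 9 rose, with a median of 0.36, and 9 rose in the corrected fit, with a median of 0.42. Bcat2, the mitochondrial transaminase of the opening step, was at 73.2, 101 and 81.1 CPM in HFD and 162, 154 and 177 CPM in SW (log2 fold change 0.95 ± 0.17 (SE), adjusted p = 0.0067). Bckdha, a subunit of the dehydrogenase that commits the chains to oxidation, was at 66.3, 98.7 and 80.9 CPM in HFD and 143, 159 and 165 CPM in SW, and the phosphatase gene Ppm1k, which activates that complex, at 7.59, 5.84 and 5.05 CPM in HFD and 11, 12.1 and 12.4 CPM in SW. The isovaleryl-CoA dehydrogenase gene Ivd was at 59.8, 85.4 and 65 CPM in HFD and 107, 135 and 138 CPM in SW. Each of these 4 genes was higher in every SW library than in every HFD library. Bckdhb, Aldh6a1, Pccb, Hsd17b10 and Bckdk were the other rises. With HFD library 401 left out, 4 members were called higher, and 3 without HFD library 403.

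**Figure D4:**
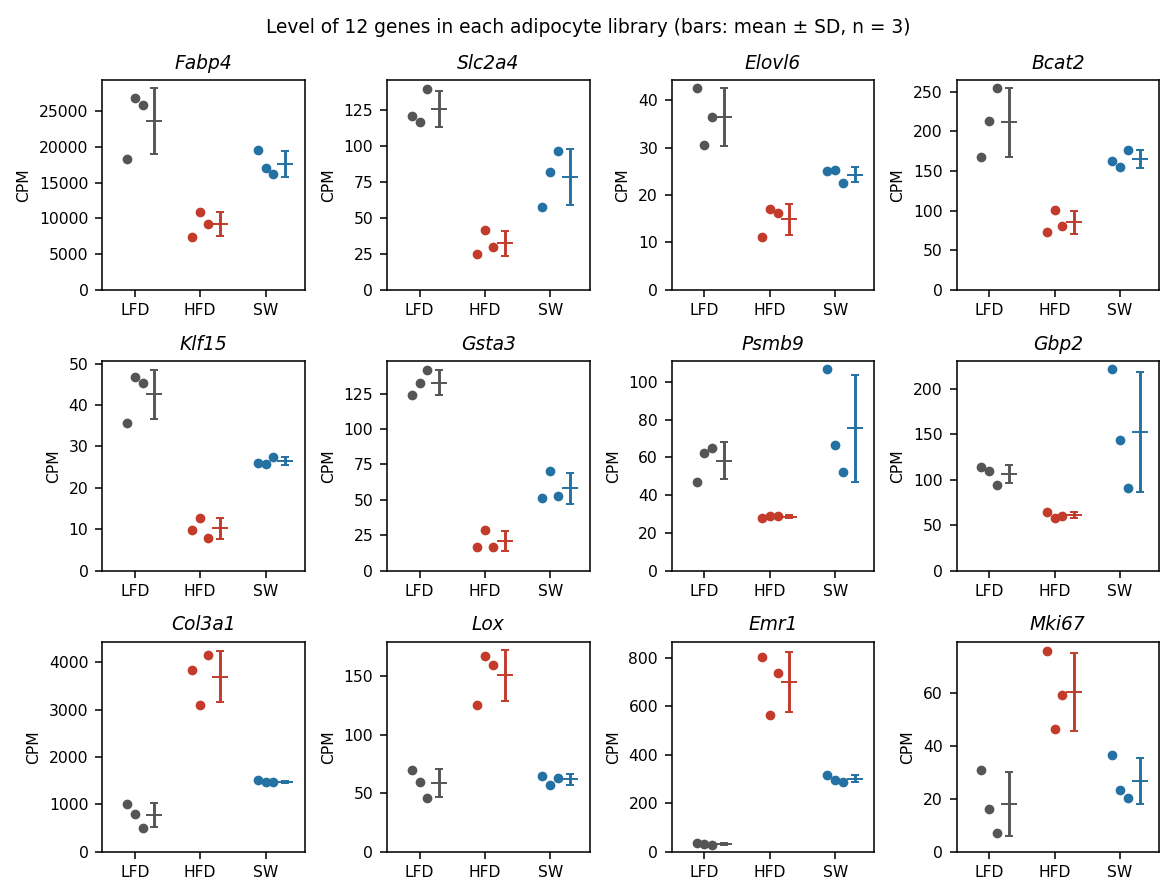
CPM of 12 genes in each library of LFD (grey), HFD (red) and SW (blue), on axes from 0, with the mean and SD of each group to the right of its points. All 12 genes have no SW point within the range of the HFD points, which holds for most called genes, and LFD levels are shown for reference.

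Nuclear genes of the respiratory chain rose, fewer of them in the corrected fit. Of 80 tested (84 listed), 58 rose, with a median log2 fold change of 0.82, and 22 rose in the corrected fit, with a median of 0.16. Their median transcript length was 1025.5 bases. Ndufa5, of complex I, was at 34.7, 44.1 and 38 CPM in HFD and 147, 86.9 and 77.6 CPM in SW (log2 fold change 1.41 ± 0.26 (SE), and 0.77 in the corrected fit). Ndufs6 was at 36.7, 51.4 and 40 CPM in HFD and 129, 76.4 and 84.9 CPM in SW, and Ndufb10 at 78.5, 103 and 86.6 CPM in HFD and 271, 155 and 171 CPM in SW. The abundant catalytic subunit of ATP synthase, Atp5b, was at 957, 1384 and 1123 CPM in HFD and 1010.0, 1144 and 1215 CPM in SW and was not called. SW library 407 was the highest SW library in the summed level, which was 9270.0 to 12500.0 CPM in HFD and 14400.0 to 20800.0 CPM in SW. With HFD library 401 or 403 left out, 11 and 8 members were called, and the list medians were 0.72 and 0.80. Over all genes these 2 fits called 1017 of 14931 and 627 of 14757 higher. Without SW library 407, 42 members were called. The corrected fit without SW library 407 called 7, where over all genes it called 1208 of 14778 higher.

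Some ribosomal protein genes were called higher, fewer of them in the corrected fit. More cytosolic ones were lower than higher in the corrected fit without SW library 407. Of 75 mitochondrial ribosomal protein genes, 36 rose and 19 did so in the corrected fit, where 5 fell, and the medians were 0.51 and 0.13. Mrpl24 was at 53.1, 67.5 and 55.2 CPM in HFD and 115, 91.4 and 90.5 CPM in SW, and Mrpl11 at 29.8, 41.8 and 35.9 CPM in HFD and 83.8, 58 and 61 CPM in SW. Of 82 cytosolic ribosomal protein genes (88 listed), 27 rose (32.9%, against 15.6% of all genes tested), with a median of 0.67. In the corrected fit, where 10.2% of all genes rose and 13.2% fell, 8 of the cytosolic genes rose and 5 fell, with a median of 0.08. Their summed level was 29300.0 to 34800.0 CPM in HFD and 39800.0 to 72600.0 CPM in SW, and SW library 407 was the one at the upper end. Rplp2 was at 315, 393 and 370.1 CPM in HFD and 1879, 777 and 859 CPM in SW. Ribosomal protein genes have many near-identical pseudogenes between which reads can be split. With HFD library 401 left out, 11 mitochondrial and 1 cytosolic members were called, and 6 and 1 without HFD library 403. Over all genes, those fits called 1017 of 14931 and 627 of 14757 higher. Without HFD library 402 the cytosolic count was 10, and without SW library 407 the counts were 21 and 9. In the corrected fit without SW library 407, 12 mitochondrial members were called higher, and of the cytosolic ones 1 was higher and 8 were lower, with a median of -0.071. Of all 14778 genes in that fit, 1208 were higher and 1705 lower.

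In the other energy pathways few genes were called. Of 13 transcripts of the mitochondrial genome, mt-Nd6 rose and mt-Nd4l fell, with a median of 0.02, and 4 fell and 0 rose in the corrected fit. The cytochrome oxidase transcript mt-Co1 was at 20927, 29000.0 and 32440.0 CPM in HFD and 28267, 28855 and 25169 CPM in SW. Of 28 genes of pyruvate entry and the TCA cycle, 2 rose, which were the pyruvate carrier gene Mpc2 (73.6, 140.4 and 96.3 CPM in HFD and 216, 135 and 157 CPM in SW) and the pyruvate dehydrogenase gene Pdhb (110.1, 147 and 116 CPM in HFD and 189.8, 185 and 194 CPM in SW), and both were called in the corrected fit. Of 19 glycolytic genes, the muscle-type phosphofructokinase gene Pfkm rose and the hexokinase gene Hk1 fell, in both fits, and the corrected fit called 3 falls. Of 24 genes of fatty acid oxidation, 2 rose and 2 fell. The falls were Cpt1a, the gate through which fatty acids enter mitochondria, at 184, 159.8 and 178 CPM in HFD and 90.9, 100.1 and 83.8 CPM in SW (log2 fold change -0.93 ± 0.14 (SE), adjusted p = 0.0041), and Hadha, of the trifunctional protein (log2 fold change -0.58). Hadh and Etfb rose, and Etfb was not called in the corrected fit, where 1 rose and 2 fell. Rises of fatty acid oxidation numbered 6 without HFD library 402 and under DESeq2, and 1 without each of the other libraries. With HFD library 401 or 403 left out, edgeR called no gene of the TCA cycle list.

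Many antioxidant enzyme genes rose. Of 40 genes of glutathione and peroxide metabolism, 21 rose and 1 fell, against 11 and 2 in the corrected fit, with medians of 0.69 and 0.43. Glutathione S-transferases led the list. Gsta3 was at 16.7, 28.7 and 16.9 CPM in HFD and 51.4, 70.6 and 52.4 CPM in SW (log2 fold change 1.48 ± 0.22 (SE), adjusted p = 0.004), Gstt2 at 19.1, 17.6 and 18.2 CPM in HFD and 47.4, 53.9 and 46.9 CPM in SW and Gstp1 at 85.9, 103 and 95 CPM in HFD and 312, 223 and 211 CPM in SW. Members of these families have close copies between which reads can be split. Gpx4, the peroxidase that repairs oxidised membrane lipids, was at 399, 651 and 493 CPM in HFD and 1509, 963 and 1095 CPM in SW, and it was not called in the corrected fit. The thioredoxin reductase gene Txnrd1 fell (log2 fold change -0.42). With HFD library 401 or 403 left out, 12 and 11 members were called higher.

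Stress and clock genes were called in both directions. Of 15 genes of the integrated stress response, 3 rose (20%, against 15.6% of all genes tested) and 1 fell, and 2 and 1 did so in the corrected fit. Among them was the serine synthesis gene Phgdh, at 87.5, 162 and 90.2 CPM in HFD and 246, 273 and 317 CPM in SW. Atf4, the transcription factor of this response, was at 130.3, 135 and 129.8 CPM in HFD and 133, 153 and 175 CPM in SW and was not called. Of 15 genes of the unfolded protein response, 5 fell and 3 did so in the corrected fit, among them the sensor gene Atf6 at 77.2, 57 and 62.9 CPM in HFD and 36.5, 40.2 and 40.5 CPM in SW. Of 19 immediate early genes, 6 rose and 3 in the corrected fit. Klf2 was at 62.7, 47.5 and 43.9 CPM in HFD and 169, 159 and 141 CPM in SW, and Fos at 725, 515 and 377 CPM in HFD and 616, 1009 and 765 CPM in SW, not called. Of 18 clock genes, 8 rose and 2 fell, and 6 and 2 did so in the corrected fit. The output gene Dbp was at 9.02, 8.85 and 10.8 CPM in HFD and 17.5, 22.1 and 21.8 CPM in SW and the repressor gene Nr1d1 at 48, 52.7 and 49.7 CPM in HFD and 70.1, 132 and 101 CPM in SW, and the activators Arntl and Clock fell from 28.6, 24.5 and 24.4 to 12.9, 18.5 and 17.7 CPM and from 53.7, 56.5 and 55.8 to 27.8, 39 and 38.2 CPM. With HFD library 403 left out, 3 clock genes, 3 immediate early genes and 1 stress response gene were called higher and 2 of the unfolded protein response lower. Without HFD library 401, the clock count was 4, as it was without SW library 408 or 409.

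Some genes of cholesterol synthesis fell. Of 24 genes tested (25 listed), 7 fell (29.2%, against 15.9% of all genes tested) and 1 rose. In the corrected fit, where 13.2% of all genes fell, 4 fell and 1 rose. Srebf2, whose product drives this pathway, was at 64.1, 54.2 and 74.2 CPM in HFD and 41.5, 41.7 and 42.1 CPM in SW (log2 fold change -0.62 ± 0.13 (SE), adjusted p = 0.0094). The reductase gene Dhcr7, of the last step, was at 30.4, 44.1 and 37.5 CPM in HFD and 21.2, 15.7 and 23.2 CPM in SW, and the sterol carrier gene Stard4 at 27.1, 19.6 and 23.5 CPM in HFD and 9.15, 13.2 and 15.4 CPM in SW. The squalene synthase gene Fdft1 went the other way, at 22.6, 31.4 and 30.3 CPM in HFD and 55, 45.7 and 50.9 CPM in SW. Without HFD library 403, 3 members were called lower. Of 12 genes of cholesterol efflux and handling, Npc1 and Lpcat3 fell, in both fits (3 falls in the corrected one). The share lower in the first fit, 16.7%, was close to the 15.9% of all genes tested. The transporter gene Abca1 was at 225, 172 and 198 CPM in HFD and 141, 185 and 178 CPM in SW, not called.

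Some lysosomal hydrolases and membrane proteins fell. Of 44 genes, 15 fell, with a median of -0.32, and 13 fell in the corrected fit, with a median of -0.38. Arsb, which removes sulfate from dermatan sulfate, was at 55.7, 52.1 and 66.3 CPM in HFD and 12.7, 19 and 20.7 CPM in SW (log2 fold change -1.72 ± 0.23 (SE), adjusted p = 0.0034). The acid ceramidase gene Asah1 was at 303, 233 and 269 CPM in HFD and 118, 161 and 139 CPM in SW. Lipa, the acid lipase that frees fatty acids from engulfed lipoproteins, was at 1012, 758 and 992 CPM in HFD and 375, 453 and 389.7 CPM in SW, with every SW library below every HFD library. Lipa lies outside the rule for examples and was named after its values were seen. The abundant cathepsin genes were less separated, with Ctsd at 5271, 5275 and 5844 CPM in HFD and 6744, 4016 and 4273 CPM in SW and Ctsb at 7160.1, 6460.1 and 7797 CPM in HFD and 5891, 4804 and 4879 CPM in SW, neither called. SW library 407 was the highest of the SW libraries in the summed level of the list, and without it 18 members were called, against 6 without HFD library 403, 8 without HFD library 401, 9 without SW library 409 and 10 without SW library 408.

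The V-ATPase, the proton pump that acidifies lysosomes, had shares of called genes close to those of all genes tested in the first fit, in either direction. Of 20 subunit genes tested (24 listed), 3 rose and 3 fell, and each count was 3 in the corrected fit. DESeq2 called 6 higher and 6 lower, upper-quartile factors gave 6 higher, and with a library left out the counts ran from 1 to 5 higher and from 2 to 5 lower, with 1 higher without HFD library 401 or 403 and 5 lower without SW library 407. Atp6v0a2 was at 32.7, 29.9 and 32 CPM in HFD and 7.15, 12 and 15.3 CPM in SW, and Atp6v0e2 at 14.9, 20.1 and 11 CPM in HFD and 37.3, 40.4 and 48.3 CPM in SW. Atp6v0a1 was at 332, 365 and 386 CPM in HFD and 299, 254 and 272 CPM in SW and was not called (log2 fold change -0.39 ± 0.14 (SE), adjusted p = 0.053).

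Macrophage genes were lower in SW, though unevenly. Of 15 macrophage markers, 7 fell and the same number in the corrected fit, with medians of -0.47 and -0.76. Emr1, which encodes the surface protein F4/80, was at 804, 564 and 738 CPM in HFD and 318, 298 and 289 CPM in SW (log2 fold change -1.22 ± 0.18 (SE), adjusted p = 0.0038), and Itgam, which encodes CD11b, at 296, 177 and 260.0 CPM in HFD and 78.3, 86.9 and 78.4 CPM in SW. The growth factor receptor gene Csf1r was at 593, 454 and 564 CPM in HFD and 309, 283 and 269.8 CPM in SW. In all 3 genes each SW library was below each HFD library, and LFD levels of Emr1 were 35.7, 32.8 and 25.4 CPM. The complement genes C1qa, at 588, 570.2 and 604 CPM in HFD and 1272, 599 and 621 CPM in SW, and C1qb, at 999, 1001 and 1080.3 CPM in HFD and 1384, 863 and 829 CPM in SW, were not called. The summed level of the 15 markers was 9650.0 to 11400.0 CPM in HFD and 7060.0 to 10500.0 CPM in SW, with SW library 407 within the HFD range. Without HFD library 401 or 403, or without SW library 408 or 409, 4 markers were called.

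Of 14 genes of lipid-associated macrophages, none was called in the first fit, while 5 were lower at an unadjusted p under 0.05. DESeq2 called 3 lower, and the corrected fit called 4 lower. Without HFD library 402, edgeR called 3 lower and 1 higher, and without SW library 407, 2 lower. With only the HFD and SW libraries it called 2 lower. Gpnmb, a membrane protein of lipid-laden macrophages, was at 2784, 1975 and 2794 CPM in HFD and 1242, 1320.4 and 1220.0 CPM in SW (log2 fold change -1.0 ± 0.42 (SE), adjusted p = 0.092), and the galectin gene Lgals3 at 2194, 2232 and 2586 CPM in HFD and 3085, 1983 and 1899 CPM in SW. The elastase gene Mmp12 was at 1324, 1029.9 and 1322 CPM in HFD and 1369.6, 1387 and 1006 CPM in SW, with overlapping groups. Of 8 resident macrophage markers, 4 fell and Timd4 rose, and in the corrected fit 2 fell and 0 rose. The mannose receptor gene Mrc1 was at 416, 253 and 351 CPM in HFD and 154, 165 and 149 CPM in SW, and Folr2 at 288, 244 and 272 CPM in HFD and 207, 138 and 146 CPM in SW. Without SW library 409 or HFD library 403, 1 of these was called lower, and without HFD library 401 or SW library 407, 2.

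**Figure D5:**
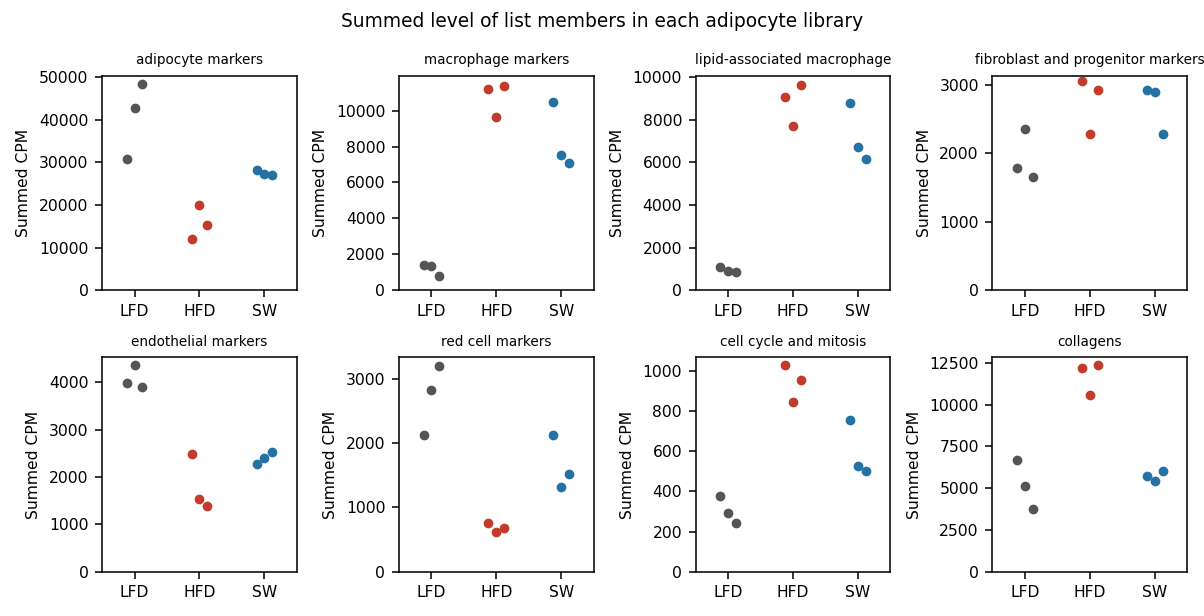
Summed CPM of the members of 8 lists in each library of LFD (grey), HFD (red) and SW (blue), on axes from 0. The SW points lie apart from the HFD points for adipocyte, red cell and cell cycle genes and collagens, and SW library 407 lies within the HFD range for macrophage markers.

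Toll-like receptors, which sense microbial nucleic acids and lipids, were among the falls. Of 23 genes of innate sensing and cytokines, 8 fell and 1 rose, and all 8 of the falls were Toll-like receptors. The corrected fit called 8 lower and 1 higher. Beside Tlr8, Tlr7 was at 55.2, 34.9 and 42.1 CPM in HFD and 17.6, 22.9 and 17 CPM in SW, Tlr9 at 5.86, 4.17 and 6.71 CPM in HFD and 0.526, 1.08 and 0.572 CPM in SW, Tlr1 at 32.1, 25.7 and 32.6 CPM in HFD and 14.8, 15.7 and 11.5 CPM in SW and Tlr13 at 122, 79.2 and 105 CPM in HFD and 53.4, 51 and 41.6 CPM in SW. Il6 rose at a low level, at 1.43, 0.96 and 0.581 CPM in HFD and 1.05, 3.6 and 5.58 CPM in SW, with overlapping groups, and the interleukin 1 antagonist gene Il1rn was at 81.7, 72.7 and 106 CPM in HFD and 51.2, 51.1 and 32.5 CPM in SW, not called. Without HFD library 403, 5 receptors of the list were called lower. Of 22 complement genes, 2 rose and 6 fell, and 2 and 7 in the corrected fit. Cfd and C2 were the rises, and C3 was at 1233, 1065 and 1045 CPM in HFD and 1091, 1073 and 916 CPM in SW, not called. Complement falls numbered 2 without HFD library 401, 2 without HFD library 403, 3 without SW library 408 and 3 without SW library 409.

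Of 25 chemokine and chemokine receptor genes, 7 rose and 2 fell. Cxcl9, an interferon-induced attractant of T cells, was at 42.4, 33.3 and 36.5 CPM in HFD and 225, 121 and 61.7 CPM in SW (log2 fold change 1.86 ± 0.37 (SE), adjusted p = 0.0083), and Cxcl10 at 4.73, 7.26 and 4.43 CPM in HFD and 31.3, 14.7 and 9.23 CPM in SW. Ccl5 was at 5.49, 3.63 and 8.41 CPM in HFD and 39, 19.8 and 7.94 CPM in SW. SW library 407 was the highest SW library in all 3 genes, and Ccl5 overlapped between the groups. In the corrected fit 3 rose and 1 fell. Without HFD library 401 or 403, 2 rises were called, and 4 without SW library 407. Of 9 T cell markers tested (11 listed), Cd3d and Cd247 rose and Il7r fell (1 rise and 1 fall in the corrected fit), and Cd3d was at 0.827, 0.584 and 1.43 CPM in HFD and 11.7, 3.42 and 1.14 CPM in SW, with SW library 407 the highest and overlapping groups. Without SW library 409, 7 T cell markers were called higher. Of 5 B cell markers tested (8 listed), 2 rose, none of them in the corrected fit, and among these Cd79a was at 3.16, 1.5 and 2.06 CPM in HFD and 5.78, 9.79 and 4.29 CPM in SW.

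Some genes of MHC class I presentation rose, and so did some interferon-stimulated genes. Of 15 genes of class I presentation, 8 rose and 1 fell, with a median of 0.75, and 6 rose and 0 fell in the corrected fit, with a median of 0.62. Of 26 interferon-stimulated genes, 8 rose, and 7 in the corrected fit. Promoter sequences are shown here for the 3 most abundant of the called genes that hold GAAA, any 2 bases and GAAA again, the letters of a common interferon response element, from RefSeq on build GRCm38.p6. Each run is 5′ to 3′ on the strand of the gene, and capitals mark the motif read on either strand, overlapping matches included.
H2-T23 (chr17:36032796-36032845, minus strand): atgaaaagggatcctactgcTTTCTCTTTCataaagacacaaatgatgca
Bst2 (chr8:71537567-71537622, minus strand): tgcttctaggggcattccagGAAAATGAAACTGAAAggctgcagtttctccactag
Gbp2 (chr3:142620584-142620633, plus strand): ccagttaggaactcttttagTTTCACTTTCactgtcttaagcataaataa
These runs end 95, 95 and 30 bases before the annotated start. Of 13 called genes with a promoter in the table, out of 16, 5 held the motif in the 250 bases before the start (38.5%), and so did 12 of 32 tested members (37.5%) and 3.06% of all 27025 promoters. A match is a description of these letters only.

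H2-T23, a non-classical class I gene, was at 158, 148 and 144 CPM in HFD and 385, 256 and 187 CPM in SW. The immunoproteasome subunit gene Psmb9 was at 27.7, 29.1 and 28.9 CPM in HFD and 107, 66.6 and 52.4 CPM in SW (log2 fold change 1.39 ± 0.23 (SE), adjusted p = 0.0055), and the peptide transporter genes Tap1 and Tap2 at 35.4, 31.9 and 31.8 CPM in HFD and 75.7, 58.4 and 40.1 CPM in SW and at 63.6, 55.4 and 55.2 CPM in HFD and 138, 100.1 and 91.5 CPM in SW. The class I gene H2-K1 was at 1060.4, 1453 and 1194 CPM in HFD and 2547, 2007 and 1691 CPM in SW, and it was not called in the corrected fit. Class I genes have close copies between which reads can be split. The guanylate-binding protein gene Gbp2 was at 64.8, 57.9 and 60.4 CPM in HFD and 222, 144 and 90.9 CPM in SW, and the tetherin gene Bst2 at 84.2, 80.4 and 67.5 CPM in HFD and 273, 133 and 132 CPM in SW. In Psmb9 and Gbp2 no SW library was within the HFD range. With HFD library 401 left out, 4 class I and 4 interferon-stimulated genes were called higher, and 3 and 3 without HFD library 403. SW library 407 was the highest SW library in every gene named above from these 2 lists. Without it, 8 class I and 6 interferon-stimulated genes were called higher. The corrected fit without it called 5 and 3 higher and 1 class I gene lower, with medians of 0.32 and 0.18. Of 12 genes of MHC class II presentation, Ciita, which encodes their coactivator, fell from 19.4, 16.6 and 22.4 to 7.78, 8.95 and 6.44 CPM and was the fall in the corrected fit too, and Cd74 was at 1964, 2015 and 2112 CPM in HFD and 3470.1, 2216 and 1695 CPM in SW, with SW library 407 above all HFD libraries and the groups overlapping.

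Many collagen and other matrix genes fell. Of 32 collagen genes tested (44 listed), 19 fell and 1 rose, with a median of -0.80, and 16 fell in the corrected fit, with a median of -0.47. Collagen transcripts are long, with a median of 6284.5 bases in this list. Col3a1, the chain of the fibrillar collagen III, was at 3838, 3101 and 4152 CPM in HFD and 1503, 1462 and 1463 CPM in SW (log2 fold change -1.32 ± 0.25 (SE), and -1.07 in the corrected fit). Col1a2 was at 1311, 965 and 1427 CPM in HFD and 718, 588 and 535 CPM in SW. Col4a1, of the basement membrane that surrounds each adipocyte, was at 1549.7, 1344 and 1288 CPM in HFD and 550.5, 639 and 761 CPM in SW. Col22a1 was the rise, at a low level of 0.225, 0.209 and 0.179 CPM in HFD and 0.526, 0.721 and 1.0 CPM in SW. The 3 SW libraries lay close together in Col3a1, and each was under the lowest HFD library by more than the range among SW libraries.

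Of 33 genes of matrix proteases, inhibitors, lysyl oxidases and glycoproteins, 15 fell and 2 rose, and the corrected counts were 16 and 2. Lox, the oxidase that crosslinks collagen, was at 125, 167 and 159 CPM in HFD and 65, 56.7 and 63.1 CPM in SW, and its relative Loxl2 at 57.3, 38.5 and 56.3 CPM in HFD and 7.25, 12.6 and 13 CPM in SW (log2 fold change -2.19 ± 0.28 (SE), adjusted p = 0.0029). The procollagen-processing protease gene Adamts2 was at 159, 155 and 171 CPM in HFD and 83.8, 80.2 and 91.6 CPM in SW. Timp4 and Mmp9 were the rises. The collagen-binding proteoglycan gene Dcn, which is abundant in fibroblasts, was at 1573, 1133 and 1543 CPM in HFD and 1569, 1679 and 1229 CPM in SW and was not called. Of 31 genes of TGF-beta, activin and BMP signalling (32 listed), 8 fell and 3 rose, and 6 and 4 did so in the corrected fit. The receptor gene Tgfbr1 was at 93.2, 71.4 and 85.1 CPM in HFD and 40.2, 55.3 and 48.2 CPM in SW, and Bmpr2 at 15.7, 7.72 and 13.3 CPM in HFD and 1.16, 1.86 and 3.22 CPM in SW. Of 10 genes of the IGF axis, Igf2r and Igf1r fell and the binding protein gene Igfbp4 rose, of which Igf1r was not called in the corrected fit. With HFD library 403 left out, 12 collagens, 7 other matrix genes and 2 signalling genes were called lower. Without HFD library 401, the first 2 counts were 13 and 8, and without SW library 409 the second was 9.

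Markers of other cell types were followed beside these genes. Of 12 fibroblast and progenitor markers, 2 fell and 1 rose, and 3 and 0 did so in the corrected fit. The shares in the first fit were 16.7% and 8.33%, against 15.9% and 15.6% of all genes tested. Fibroblast falls ran from 0, without HFD library 403, to 4, without HFD library 402 and under DESeq2. Their summed level was 2290.0 to 3060.0 CPM in HFD and 2280.0 to 2920.0 CPM in SW. Of 15 endothelial markers, 5 rose and 4 in the corrected fit, while the list median was -0.12 and 0.14. Cldn5, a tight junction protein of vessels, was at 226, 172 and 138 CPM in HFD and 447, 472 and 584 CPM in SW, while Pecam1 was at 387, 208 and 193 CPM in HFD and 204, 248 and 237 CPM in SW, not called. The endothelial sum was 1390.0 to 2480.0 CPM in HFD and 2280.0 to 2540.0 CPM in SW, with HFD library 401 at the upper end, and without that library 7 endothelial markers were called higher, against 3 without HFD library 402 or 403. Of 10 smooth muscle and pericyte markers, 3 rose, among them Acta2, and 1 fell (3 and 0 in the corrected fit). Of 10 mesothelial markers, none was called in the first fit or by DESeq2, and 1 was higher at an unadjusted p under 0.05. Without HFD library 401, edgeR called 1 mesothelial marker higher, and without HFD library 402, 1 lower. The part of these cells in the results was not tested.

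Many genes of cell division fell. Of 28 genes tested, 19 fell, with a median of -0.92, and 18 fell in the corrected fit, with a median of -0.91. Promoters are shown for the 3 most abundant of the 6 called genes that hold both CCAAT and TTTGAA, letters read by the factors that time mitotic genes. The runs are from RefSeq on build GRCm38.p6, 5′ to 3′ on the strand of the gene, with matches on either strand in capitals, and adjoining matches run together.
Mki67 (chr7:135716452-135716587, minus strand): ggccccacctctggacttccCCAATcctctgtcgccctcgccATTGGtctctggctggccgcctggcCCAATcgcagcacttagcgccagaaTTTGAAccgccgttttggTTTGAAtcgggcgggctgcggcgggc
Top2a (chr11:99024190-99024436, minus strand): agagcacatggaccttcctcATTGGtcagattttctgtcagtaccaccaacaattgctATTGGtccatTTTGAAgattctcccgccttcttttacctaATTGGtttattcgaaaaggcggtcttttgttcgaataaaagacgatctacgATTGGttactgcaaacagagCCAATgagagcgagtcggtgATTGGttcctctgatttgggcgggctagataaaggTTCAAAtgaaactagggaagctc
Cdk1 (chr10:69352913-69353140, minus strand): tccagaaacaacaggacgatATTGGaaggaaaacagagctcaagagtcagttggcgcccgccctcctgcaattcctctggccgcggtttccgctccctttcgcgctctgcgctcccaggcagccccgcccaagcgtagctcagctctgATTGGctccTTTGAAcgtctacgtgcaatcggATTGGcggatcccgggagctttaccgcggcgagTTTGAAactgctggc
The Mki67 run ends 73 bases before the annotated start, and the other two end at the base before it. CCAAT was in the 250 bases before the start in 16 of the 16 called genes with a promoter in the table, out of 19, in 87.5% of 24 tested members and in 34.2% of all promoters. Both motifs were in 37.5%, 29.2% and 5.67%. A match is a description of these letters only.

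Mki67, the marker of cycling cells, was at 75.6, 46.1 and 59.1 CPM in HFD and 36.5, 23.1 and 20.2 CPM in SW (log2 fold change -1.19 ± 0.41 (SE), adjusted p = 0.05), and the topoisomerase gene Top2a at 59.9, 44.4 and 58 CPM in HFD and 23.7, 16.8 and 16.1 CPM in SW. Cdk1, the kinase of mitotic entry, was at 28.7, 27.1 and 30.2 CPM in HFD and 23.3, 13.8 and 12.7 CPM in SW. The spindle motor gene Kif11 was at 19.9, 14.1 and 16.4 CPM in HFD and 5.68, 4.33 and 5.22 CPM in SW (log2 fold change -1.73 ± 0.22 (SE), adjusted p = 0.003), and the mitotic kinase gene Plk1 at 13.1, 9.14 and 10.7 CPM in HFD and 5.36, 3.18 and 3.43 CPM in SW. Of the helicase subunits that license replication, Mcm3 was at 52.7, 42.3 and 47.7 CPM in HFD and 29.9, 25.4 and 24.2 CPM in SW and Mcm5 at 45.7, 40.2 and 44.3 CPM in HFD and 26.3, 18.7 and 18.7 CPM in SW. In each of these genes all SW values were below all HFD values, as in 2265 of the 2294 called falls. Pcna, the replication clamp, was at 253, 234 and 254 CPM in HFD and 272, 188 and 169 CPM in SW and was called lower in the corrected fit only. Mki67 and Cdk1 were not called in the corrected fit (adjusted p = 0.23 and 0.15). The summed level of the list was 848 to 1030.0 CPM in HFD, 504 to 755 CPM in SW and 242 to 380.0 CPM in LFD. Without HFD library 403, 9 members were called lower, 11 without HFD library 401, and 12 without SW library 408 or 409.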

How the data were processed

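RNA of the adipocyte and stromal vascular fractions was sequenced in bulk (TruSeq libraries; the labels name paired-end runs and, for some libraries, single ones). Per the labels' processing notes, the authors used Bowtie2 and RSEM with mouse build mm9, and limma. The deposited values are RSEM estimated counts per gene, given as whole numbers for 39017 genes. The versions, the strand setting and whether repeat or single runs were added up are not given in the sources used here, so reads of a gene and its antisense partner cannot be told apart. The column names give the fraction and diet but no replicate number of the labels, and 3 columns of values that match no sample were not used.

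The 9 adipocyte libraries were fitted together in edgeR 4.0.16 (quasi-likelihood, robust, TMM factors, filterByExpr with a minimum count of 10), with SW minus HFD as the contrast and Benjamini-Hochberg adjusted p over all genes tested. SEs are the fold change over the square root of F. The pairing of columns could not be used. DESeq2 1.42.0, limma-voom (limma 3.58.1), RLE and upper-quartile factors, other filters, only the 6 libraries compared, thinning, protein-coding genes only and leaving out each library were the alternatives. The corrected fit, chosen after seeing the data, took a loess (span 0.3) of each library's log2 CPM deviations on log2 transcript length and GC content (GENCODE M21) as an offset. The fit without correction was tested on simulated data.

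The 47 gene lists and their members were chosen with earlier results of these data known. Ranked genes were the 12 largest rises and 12 largest falls among called protein-coding genes whose groups did not overlap, whose mean log2 CPM reached 3, and which were not at 0 throughout either group. For each list, up to 4 members with the smallest adjusted p and up to 4 with the highest mean CPM were named. Lipa, Top2a, Cdk1, H2-T23 and other members named as the remaining calls of a list fall outside this rule and were named after their values were seen.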

Additional observations from a re-analysis of the deposited data

How the results depend on the processing

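The count of called genes stayed within 1.5 times of the 4546 under DESeq2 (5183), limma-voom, RLE and upper-quartile factors, other filters, only the 6 libraries, thinning and protein-coding genes only (3824 to 5183). Upper-quartile factors gave 2613 higher and 1937 lower, so that 57.4% of the calls were higher. Leaving out a library gave 1522 to 4290 called genes, 627 to 1950 higher and 895 to 2413 lower, with the lowest counts without HFD library 403 (1522) and without HFD library 401 (2299, of which 1017 were higher and 1282 lower). The corrected fit gave 1464 higher genes, and without SW library 407 as well 2913 called, 1208 of them higher. At 4-fold in place of 2-fold, 3.95% of the rises, 20% of the falls and 11.1% of all genes were higher in the SVC libraries than in LFD adipocytes, a split that mixes diet with fraction. At 2-fold with diets weighted equally, chosen after seeing the data, 22.8% of the falls were, against 20.7% of all genes. That version uses the HFD and SW adipocyte libraries that made the calls.

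List medians were above 0 in 30 of 47 lists, and in 26 to 31 under the alternatives (26 to 29 with a library left out). Some medians changed sign with a level and a difference above the spread between libraries (1 SD). In the corrected fit, and in that fit without SW library 407, these were insulin signalling at 0.061 and 0.084, mitochondrial genome transcripts at -0.39 and -0.41, V-ATPase at -0.14 and -0.24, chemokines at -0.090 and -0.053 and MHC class II at -0.011 and -0.31. Cytosolic ribosomal proteins came to -0.071 in the second of these alone, and adrenergic genes to -0.11 with libraries thinned. The V-ATPase median ran from -0.039, without SW library 407, to 0.20 with a library left out. Medians near 0 crossed it within that spread in at least 1 alternative for the IGF axis, the TCA cycle, TGF-beta signalling, endothelial and smooth muscle markers, fatty acid oxidation, triglyceride synthesis and lipolysis. The cause of these changes was not tested.

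Of the 24 ranked genes, 23 were called under DESeq2, 20 without a filter on low counts and 19 to 23 with a library left out. No paired analysis was possible because the columns carry no replicate numbers of the labels. Depth limits genes with few counts, and thinning every library to the smallest left 3824 genes called.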

Other observations

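Long non-coding RNA genes, which belong to none of the lists, were mostly higher in SW. Of 562 tested, 174 rose and 15 fell, with a median log2 fold change of 0.65, and 106 rose and 23 fell in the corrected fit, with a median of 0.40. Antisense transcripts made up 196 of them, of which 68 rose and 2 fell, and 39 and 9 did so in the corrected fit. Long intergenic transcripts made up 186, of which 50 rose and 5 fell, and 33 and 6 in the corrected fit. Their median level was 1.65 CPM against 21.7 CPM for protein-coding genes, and their median length 1970.5 bases against 3386 bases. Of the 13 genes at 0 in all HFD and seen in all SW libraries, 8 were antisense or long intergenic RNA genes, and whether HFD libraries were counted against the same annotation as the others is not given in the sources used here. Its part in these counts was not tested. Processed pseudogenes changed direction with the correction: of 152, 49 rose and 16 fell at first, and 9 rose and 44 fell in the corrected fit, with medians of 0.63 and -0.59.

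Some families of genes that share a symbol stem are given as counts, out of 147 stems with at least 10 members tested. Of all genes tested, 15.9% fell and 15.6% rose, and 13.2% and 10.2% in the corrected fit. Nucleoporins (Nup), which build the nuclear pore, fell in 10 of 18 members and in 9 in the corrected fit. Kinesins (Kif), motors of microtubules, fell in 17 of 31, and in 12 in the corrected fit. Sorting nexins (Snx) fell in 12 of 30 and in 14, and vacuolar protein sorting genes (Vps), which like them route membrane to endosomes, in 11 of 31 in both fits. Lsm genes, of RNA processing, rose in 6 of 12 and in 4 in the corrected fit. These families were picked after their counts were seen, and no test was made of them.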
